A study of Homo sapiens with 3 samples.

Results

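Nuclear hormone receptors are transcription factors that carry a DNA-binding domain of zinc fingers and, in most members, a pocket for a small lipid-soluble ligand such as a steroid, a retinoid, thyroid hormone, vitamin D, an oxysterol or a fatty acid. Many members of subfamily 1 bind DNA as pairs with a retinoid X receptor, steroid receptors bind as pairs of themselves after release from heat-shock chaperones, and several members are orphans that act without a known natural ligand. On DNA they recruit coactivators or corepressors. In lung epithelium the glucocorticoid receptor and the retinoic acid receptors are known for their part in alveolar maturation.

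The family was read here as 46 genes named from the standard nomenclature and sorted by subfamily into 19 groups. Members were not picked by their level, but they and the lists below were chosen with earlier results of these data known. All 46 had a row among the 60880 gene rows of the count file, 19056 of which were protein-coding. The series set wild-type cells of the human lung adenocarcinoma line NCI-H1975 against anlotinib-resistant cells, with RNA-seq of resistant cells after TFAP2A knockdown. Anlotinib inhibits receptor tyrosine kinases of blood vessel growth. Values come from 1 library, RNA-seq replicate 2 of the wild-type cells, which were grown in medium with 10% fetal calf serum, itself a source of hormones. The 2 ATAC-seq samples of wild-type cells, the resistant cells and the TFAP2A knockdown cells were not analysed here.

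The library held 25012733 counts, so that 1 count equalled 0.04 CPM (counts per 1000000 counts of the library). A gene without a read is given an upper limit of 3 counts, or 0.12 CPM, while its 95% Poisson interval would reach 0.147 CPM. A gene with at least 10 counts, or 0.4 CPM, is called detected. With a single library there was no replicate check and no test, and the 95% Poisson or binomial intervals given in brackets cover counting error only. CPM is not divided by transcript length, because no transcript lengths were used here, and an order of receptors below is an order of read numbers, not of molecules. Of 10 markers of the labelled lung epithelial line 8 were detected, beside 69.7% of protein-coding genes. They were led by KRT7 with 132533 counts and included the lung lineage factor NKX2-1 with 2926. SFTPB had 62 counts, SFTPC had 1 and SCGB1A1 had 0. None of 8 markers of leukocytes, endothelial cells and fibroblasts was detected. Together those 8 held 6 counts, with no more than 2 in any gene, and TIE1, CLDN5, DCN and LUM were at 0.

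Of the 46 receptors 30 were detected, or 65.2%, beside 69.7% of protein-coding genes, a share near that background that is no result about the family. Another 9 receptors had 1 to 8 counts and 7 were at 0. The 30 detected receptors had a median of 37.5 CPM, beside 26.4 CPM for all detected protein-coding genes, and 18 of them (60.0%) lay above that value. With undetected genes included, the median was 6.64 CPM for the 46 receptors and 9.84 CPM for protein-coding genes. The family held 38866 counts, or 0.155% of the library (0.154 to 0.157).

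**Figure D1:**
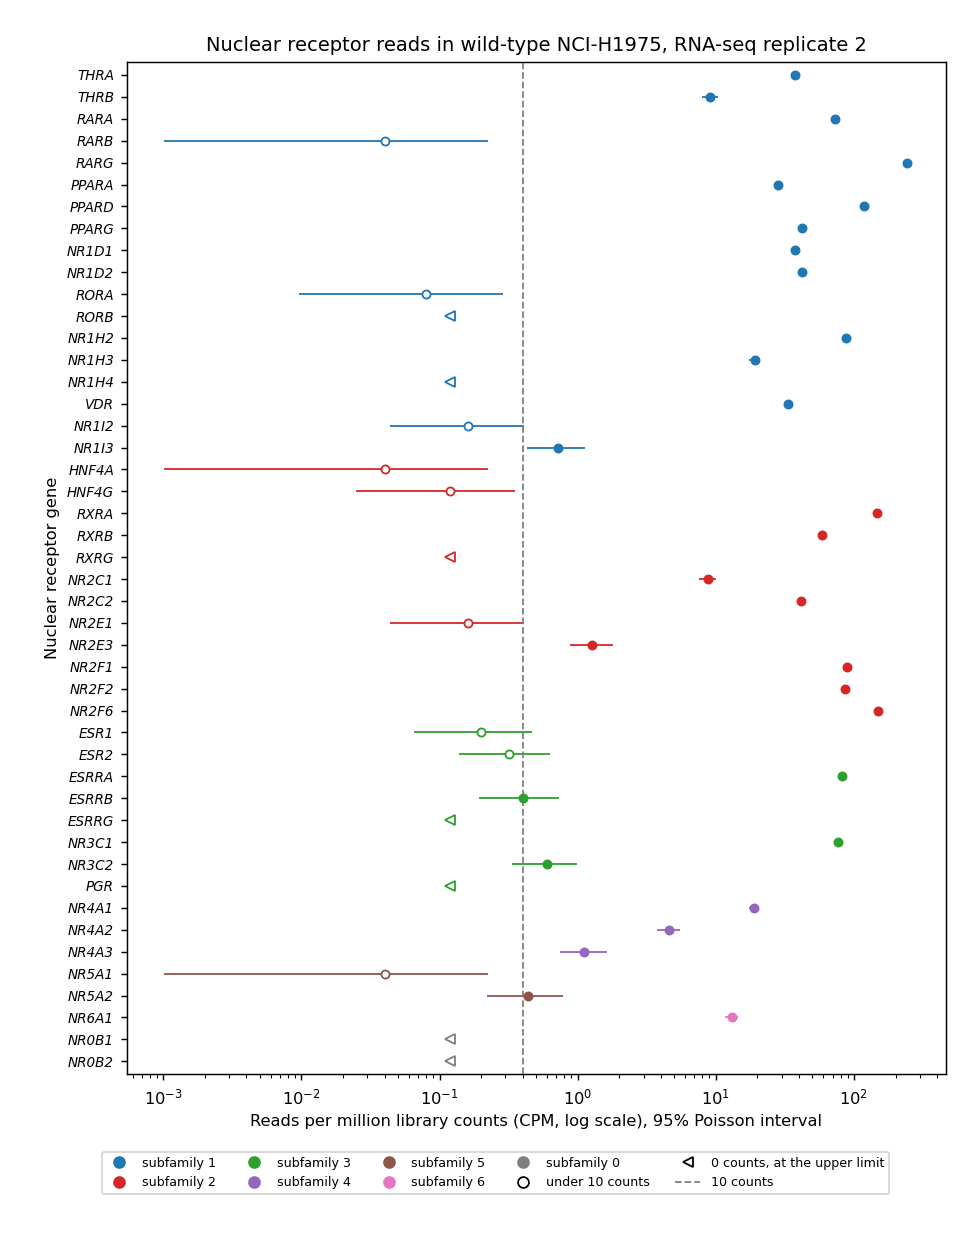
Reads of each of the 46 nuclear receptor genes in the single wild-type library, as CPM on a log axis with 95% Poisson intervals; colours are subfamilies, open circles had under 10 counts, open triangles had 0 counts and stand at the upper limit of 0.12 CPM, and the dashed line is 10 counts. RARG, NR2F6, RXRA and PPARD lie above 100 CPM, while members such as RORB, RXRG, PGR and NR0B1 had no read.

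Reads were unevenly spread over the family. RARG, NR2F6, RXRA, PPARD and NR2F1 together had 18661 counts, or 48.0% (47.5 to 48.5) of all receptor reads. Above 100 CPM stood 4 members, 17 lay from 10 to 100 CPM, 5 from 1 to 10 CPM, and 4 detected members were under 1 CPM. The 16 undetected members together had 29 counts. In the RefSeq annotation 10 of the 46 receptors overlap the span of another protein-coding gene with at least 10 counts, which is named beside each below. Subfamily 1, with thyroid hormone, retinoic acid, peroxisome proliferator, oxysterol and vitamin D receptors, took 49.6% of receptor reads, subfamily 2, with the retinoid X receptors and COUP transcription factors, took 37.5%, and the steroid receptor subfamily 3 took 10.4%.

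**Figure D2:**
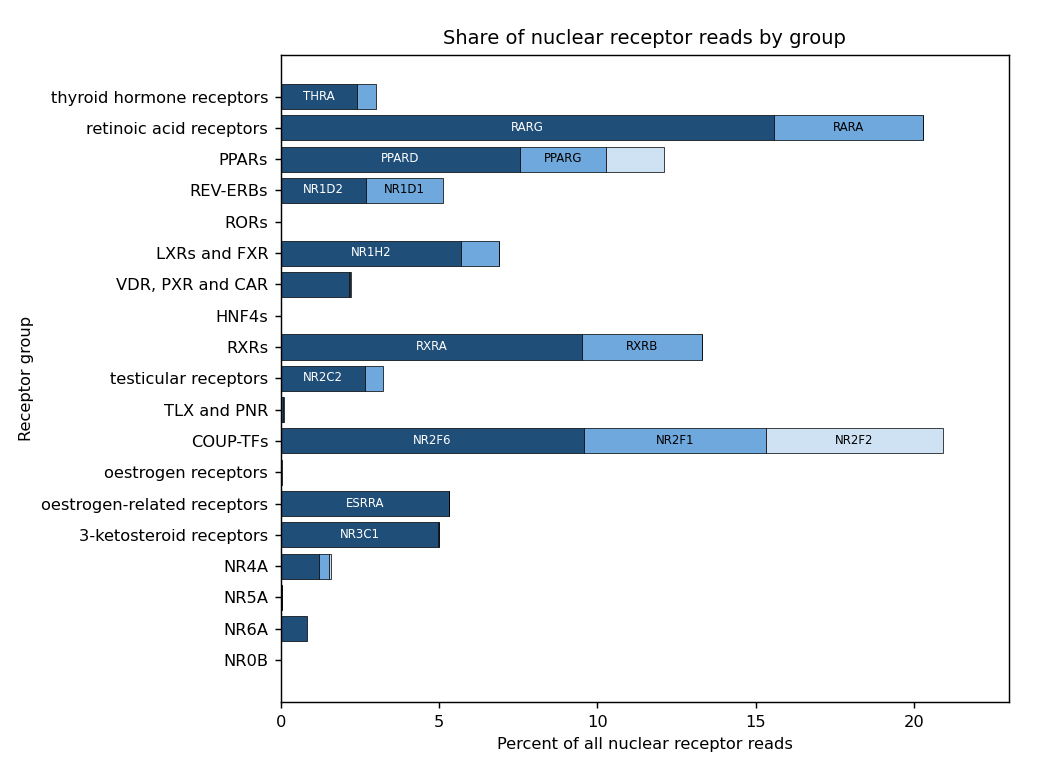
Percent of all 38866 nuclear receptor reads held by each of the 19 receptor groups, with a bar segment for each member from the highest count outward. The COUP transcription factors (20.9%) and the retinoic acid receptors (20.3%) hold the longest bars, and the RORs read here (RORA and RORB), HNF4s, oestrogen receptors, NR5A and NR0B groups hold almost no reads.

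**Figure D3:**
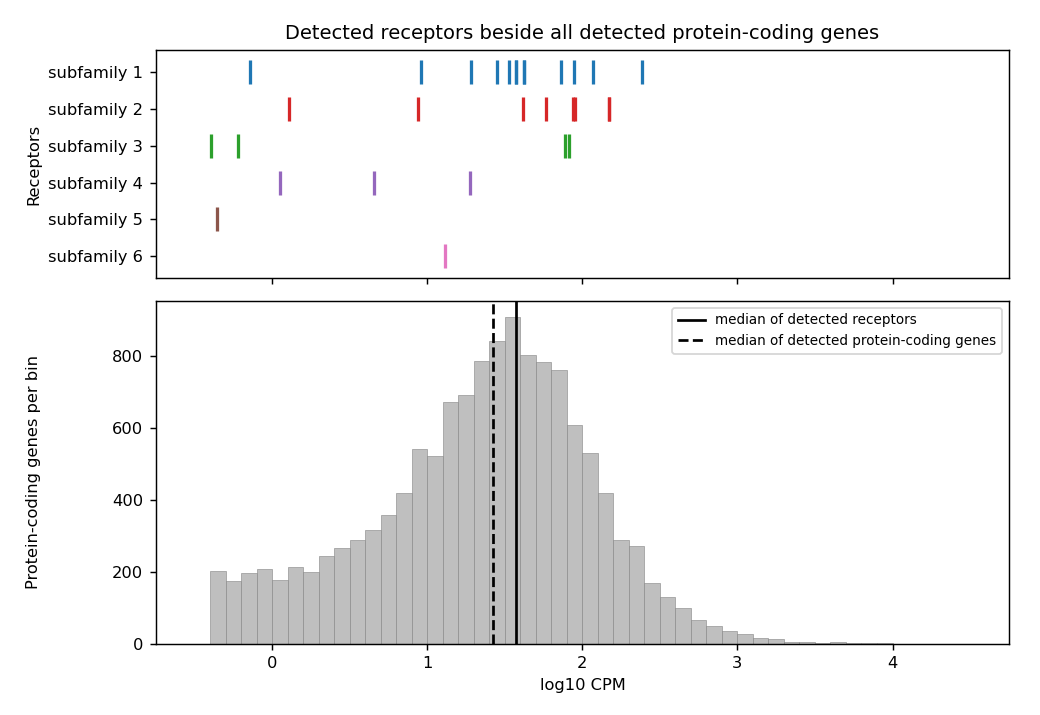
Upper panel, a tick for each of the 30 detected receptors by subfamily; lower panel, the number of detected protein-coding genes per 0.1-wide bin of log10 CPM. The median of detected receptors (37.5 CPM, solid line) lies near that of detected protein-coding genes (26.4 CPM, dashed line), and the detected members of subfamilies 4, 5 and 6 all lie to the left of both lines.

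Promoter sequence was set beside these levels, since it is a property the choice of members did not use. The RefSeq promoter table (GRCh38.p14) held 41 of the 46 receptors and 15237 protein-coding genes of the library; HNF4G, NR2F6, NR0B2, NR4A2 and VDR were not among them. For each gene the 250 bases before the listed start furthest upstream were read. Windows of 4 receptors are printed 5′ to 3′ on the gene's strand, with every CpG dinucleotide in capitals, because they show a CpG-poor and a CpG-dense window among the highest receptors and again among receptors at 0. RARG (6057 counts) lies at chr12:53232210-53232459 on the minus strand, RXRA (3703 counts) at chr9:134326205-134326454 on the plus strand, RXRG (0 counts) at chr1:165445127-165445376 on the minus strand and NR1H4 (0 counts) at chr12:100503110-100503359 on the plus strand.
RARG: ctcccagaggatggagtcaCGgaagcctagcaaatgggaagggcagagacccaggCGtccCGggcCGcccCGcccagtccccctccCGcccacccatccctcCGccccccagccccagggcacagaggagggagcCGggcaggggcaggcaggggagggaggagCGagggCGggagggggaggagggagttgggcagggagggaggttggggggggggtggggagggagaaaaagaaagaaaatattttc
RXRA: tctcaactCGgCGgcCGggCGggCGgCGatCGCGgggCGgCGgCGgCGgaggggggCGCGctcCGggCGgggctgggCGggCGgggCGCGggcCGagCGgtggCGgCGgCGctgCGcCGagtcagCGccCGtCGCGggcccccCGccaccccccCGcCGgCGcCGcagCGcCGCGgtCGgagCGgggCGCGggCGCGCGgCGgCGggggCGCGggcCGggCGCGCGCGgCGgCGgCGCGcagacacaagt
RXRG: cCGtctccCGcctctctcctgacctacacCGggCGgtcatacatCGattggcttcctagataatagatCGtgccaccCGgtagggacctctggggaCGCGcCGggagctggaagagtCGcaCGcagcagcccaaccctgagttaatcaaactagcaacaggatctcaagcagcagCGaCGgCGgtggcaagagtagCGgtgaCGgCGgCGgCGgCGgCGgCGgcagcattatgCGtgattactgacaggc
NR1H4: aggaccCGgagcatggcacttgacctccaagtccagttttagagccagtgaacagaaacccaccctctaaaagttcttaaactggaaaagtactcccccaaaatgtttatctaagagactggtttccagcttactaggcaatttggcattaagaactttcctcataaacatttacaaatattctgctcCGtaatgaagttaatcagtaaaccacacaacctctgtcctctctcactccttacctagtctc

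The RARG window had 10 CpG and a ratio of observed to expected CpG of 0.351, although RARG had the highest count of the family. The RXRA window had 59 CpG, a GC content of 89.2% and a ratio of 1.22. Among receptors with no read, the RXRG window had 24 CpG and a ratio of 1.0, whereas the NR1H4 window had 2 CpG and a ratio of 0.199. High and absent reads each occurred with both kinds of window among those printed, which were chosen to show this.

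A window was called CpG-rich at a GC content of at least 50% and a ratio of at least 0.6. CpG-rich windows were found in 16 of 27 detected receptors (59.3%) and in 7 of 14 receptors under 10 counts (50%). For protein-coding genes the shares were 74.5% of 10835 detected genes and 28.2% of 4402 genes under 10 counts. The gap between detected and undetected genes was 9.26 percentage points in the receptors and 46.3 percentage points in protein-coding genes, and was not tested. Receptors under 10 counts with a CpG-rich window were RARB, RORB, RXRG, NR2E1, ESR2, ESRRG and NR0B1. When any listed start could count, the shares were 74.1% and 57.1% of receptors, and 81.1% and 31.6% of protein-coding genes. NR3C1, with 7 listed starts, shows the effect of the start used, since the furthest had no CpG and another was CpG-rich.

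**Figure D4:**
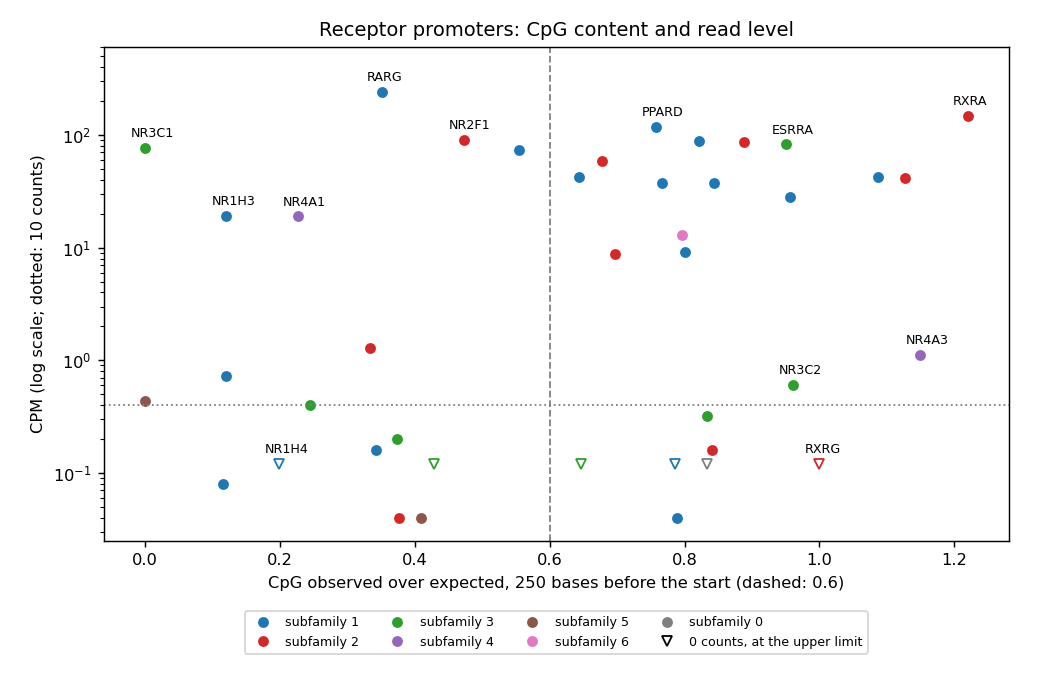
For the 41 receptors with a listed promoter, CPM (log axis) against the ratio of observed to expected CpG in the 250 bases before the start furthest upstream; colours are subfamilies and open triangles are receptors with 0 counts. RXRA and RXRG both lie to the right of the dashed line at 0.6, at 148 CPM and at 0 counts, and RARG and NR1H4 both lie to the left of it.

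Motif letters were searched in the same windows on both strands, and none of them contains another. GCCNNNGGC, a core recognised by AP-2 factors such as TFAP2A, occurred in 8 of 41 receptor windows (19.5%) and in 24.2% of the 15237 windows. AGGTCA, the core bound by many nuclear receptors themselves, occurred in 7 (17.1%) and in 10.1% of windows. The GC box GGGCGG occurred in 22 (53.7%) and in 56.6%, the E-box CACGTG in 3 and in 7.79%, and the cAMP response element TGACGTCA in 2 and in 2.34% of all windows. A match describes these letters only, and no accessibility or binding was analysed here.

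Among the retinoic acid receptors, which bind all-trans retinoic acid, RARG led the whole family. RARG (identifier ENSG00000172819.16_4) had 6057 counts, or 242 CPM (236 to 248). It exceeded 95.1% of detected protein-coding genes. RARA, the receptor fused to PML in acute promyelocytic leukaemia, had 1831 counts, or 73.2 CPM (69.9 to 76.6). RARB, a retinoid-induced receptor that is often silenced in lung cancer, had 1 count. RARG thus had 3.31 times (3.14 to 3.49) the reads of RARA, and RARB was undetected. The antisense gene RARA-AS1 had 27 counts, and RARB overlaps the strongly read TOP2B (3417 counts) in the annotation.

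Their obligate partners, the retinoid X receptors, were read from RXRA and RXRB. RXRA (ENSG00000186350.10_3) had 3703 counts, or 148 CPM (143 to 153). RXRB had 1464 counts, or 58.5 CPM (55.6 to 61.6), and RXRG had none. RXRA thus had 2.53 times (2.38 to 2.69) the reads of RXRB, and the gene mostly known from muscle and brain was at 0.

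Genes that bind, make or break down retinoids were read next to these receptors, and 7 of 13 were detected, with a list median of 7.84 CPM. For this and the other lists below, the values over all protein-coding genes are 69.7% detected and a median of 9.84 CPM, no list was tested against them, and the counts describe each list only. CRABP2, which carries retinoic acid to the nucleus, had 1898 counts. CYP26B1, which breaks retinoic acid down, had 939 counts, the retinol dehydrogenase RDH10 had 737 and the fatty acid carrier FABP5 had 707. The retinol uptake receptor STRA6 had 668 counts and the retinaldehyde dehydrogenase ALDH1A3 had 196, whereas ALDH1A1 and CRABP1 were at 0. The list was therefore split between genes with 196 or more reads and genes with 7 or fewer. Among 5 textbook targets of retinoic acid receptors 3 were detected. The transglutaminase TGM2 had 8874 counts, DHRS3, a retinaldehyde reductase, had 589 and RARRES1 had 16. The strongly retinoid-induced gene CYP26A1 had 3 counts, and the list median was 0.64 CPM.

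All 3 peroxisome proliferator-activated receptors, which sense fatty acids, were detected. PPARD, the broadly expressed form, had 2940 counts, or 118 CPM (113 to 122). PPARG, the regulator of fat cell formation, had 1058 counts, or 42.3 CPM (39.8 to 44.9). PPARA, the regulator of fatty acid oxidation in liver, had 707 counts, or 28.3 CPM (26.2 to 30.4). Read numbers fell in the order PPARD, PPARG, PPARA, with PPARD at 2.78 times (2.59 to 2.98) the reads of PPARG and an interval of 1.36 to 1.65 for PPARG over PPARA. Of 9 shared targets 7 were detected, with a list median of 39.2 CPM. The mitochondrial dehydrogenase ACADVL had 14132 counts, the lipid droplet protein PLIN2 had 3306, the carnitine transferase CPT1A had 1984 and ANGPTL4 had 1679. PDK4 had 96 counts, and the fat cell gene FABP4 was at 0.

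The liver X receptors, which sense oxysterols, were both detected, and the bile acid receptor NR1H4 (FXR) was not. NR1H2, the ubiquitous liver X receptor beta, had 2208 counts, or 88.3 CPM (84.6 to 92.0). NR1H3, liver X receptor alpha, had 477 counts, or 19.1 CPM (17.4 to 20.9), and its span overlaps ACP2, which had 973 counts. NR1H2 thus had 4.63 times (4.19 to 5.12) the reads of NR1H3. Of 6 liver X receptor targets 5 were detected, with a list median of 28.5 CPM. SREBF1, the regulator of fatty acid synthesis, had 11214 counts and the cholesterol exporter ABCA1 had 1787. LPCAT3 had 1002 counts and MYLIP, which targets the LDL receptor for degradation, had 425, whereas ABCG1, another cholesterol exporter, was at 0. Of 6 enzymes of oxysterols and bile acids 3 were detected, with a list median of 0.48 CPM. CYP27A1 led with 396 counts, CYP39A1 had 27 and CYP46A1 had 18, while CH25H had 6 and CYP7B1 and CYP7A1 had none. FXR targets were scarce as well. FGF19 had 46 counts, SLC51A had 25, ABCB11 had 1 and SLC51B had 0, which made 2 of 4 detected and a list median of 0.52 CPM.

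VDR was the receptor of its group with most reads, and the xenobiotic receptors were at or near the limit of detection. VDR, the receptor of calcitriol, had 835 counts, or 33.4 CPM (31.2 to 35.7). NR1I3, the constitutive androstane receptor of liver, had 18 counts, or 0.72 CPM (0.426 to 1.14), and its span overlaps TOMM40L, which had 732 counts. NR1I2, the pregnane X receptor, had 4 counts and was undetected. Among 4 genes of vitamin D metabolism, which had a median of 6.64 CPM, 3 were detected. CYP24A1, the enzyme that inactivates calcitriol and a classical VDR target, had 701 counts, the 25-hydroxylase CYP2R1 had 243 and CYP27B1, which makes calcitriol, had 89, while the carrier gene GC was at 0. Of 6 VDR targets 4 were detected, with a list median of 3.26 CPM. After CYP24A1 came CD14 with 600 counts, the thrombomodulin gene THBD with 104 and the calcium channel TRPV6 with 59, and CAMP had 7 and S100G had 0. Of 6 targets of NR1I2 and NR1I3 only ALAS1, the first enzyme of haem synthesis, was detected, with 1462 counts. CYP3A4, CYP2B6, ABCB1 and UGT1A1 were at 0, and the list median was 0 CPM.

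The thyroid hormone receptors were both detected. THRA had 940 counts, or 37.6 CPM (35.2 to 40.1), and THRB had 227 counts, or 9.08 CPM (7.93 to 10.3). THRA thus had 4.14 times (3.58 to 4.81) the reads of THRB, and THRB-AS1 had 10 counts. Of 7 genes of hormone uptake and deiodination 4 were detected, with a list median of 0.44 CPM. The activating deiodinase DIO2 had 125 counts, the inactivating deiodinase DIO3 had 21 and CRYM, a binding protein, had 11. DIO1, SLC16A10 and SLCO1C1 had no read.

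On chromosome 17 THRA overlaps the gene of the clock repressor NR1D1 (REV-ERB alpha), which is transcribed from the opposite strand. NR1D1 had 935 counts, or 37.4 CPM (35.0 to 39.9), and the 940 counts of THRA differed from it by less than counting error. The library kit keeps strand, but no source used here gives the strand setting of the counting, so reads of the shared stretch cannot be assigned with certainty to either gene. NR1D2 (REV-ERB beta), at another locus, had 1051 counts, or 42.0 CPM (39.5 to 44.6), with NKIRAS1 at 100 counts as an overlapping neighbour. RORA and RORB, activators of a group that competes with the REV-ERBs for the same elements, were undetected. RORA had 2 counts and RORB had 0, while their antisense genes RORA-AS1, RORA-AS2 and RORB-AS1 had 7, 0 and 0 counts.

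All 15 genes of the circadian clock list were detected, with a median of 15.4 CPM. The repressor BHLHE40 had 6551 counts, NPAS2, a partner of BMAL1, had 1553, PER1 had 930 and the PAR bZIP factor TEF had 750. CLOCK had 575 counts and BMAL1, a direct target of REV-ERB repression, had 316. HLF was lowest with 11 counts. The clock list was thus detected in full, while RORA and RORB were not.

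The COUP transcription factors, orphan receptors of which several act in embryonic development, held 20.9% (20.5 to 21.3) of receptor reads as a group, and the retinoic acid receptors held 20.3% (19.9 to 20.7). These intervals overlap, so the order of the 2 groups is not set by these counts. NR2F6 (ENSG00000160113.5_3) had 3718 counts, or 149 CPM (144 to 154). NR2F1 had 2243 counts, or 89.7 CPM (86.0 to 93.5), and NR2F2, known for its role in veins and lymphatic vessels, had 2166 counts, or 86.6 CPM (83.0 to 90.3). NR2F6 had 1.66 times (1.57 to 1.75) the reads of NR2F1, while NR2F1 and NR2F2 did not differ beyond counting error, at a ratio of 1.04 (0.976 to 1.10). NR2F1-AS1, the antisense long non-coding neighbour of NR2F1, had 409 counts, and NR2F2-AS1 had 16.

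In the rest of subfamily 2, outside the COUP transcription factors and the retinoid X receptors, reads came mainly from NR2C2. NR2C2 (testicular receptor 4) had 1039 counts, or 41.5 CPM (39.1 to 44.1), and NR2C1 (testicular receptor 2) had 218 counts, or 8.72 CPM (7.60 to 9.95), a ratio of 4.77 (4.11 to 5.54). The span of NR2C2 overlaps MRPS25 with 2005 counts and FGD5-AS1 with 1743. NR2E3, the photoreceptor receptor PNR, had 32 counts, or 1.28 CPM, and NR2E1 (TLX), a neural stem cell regulator, had 4. The HNF4 receptors of liver and gut were undetected, with 1 count for HNF4A, 3 for HNF4G and 0 for HNF4A-AS1. Of 7 HNF4A targets only SERPINA1, the gene of alpha-1 antitrypsin, was detected, with 2036 counts. APOA2, APOB, APOC3, TTR and FABP1 were at 0, and the list median was 0 CPM.

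In subfamily 3, NR3C1 and ESRRA were read and the sex steroid receptors listed were not. NR3C1, the glucocorticoid receptor, had 1932 counts, or 77.2 CPM (73.8 to 80.8). NR3C2, the mineralocorticoid receptor, had 15 counts, or 0.6 CPM (0.336 to 0.989), so that NR3C1 had 129 times (77.9 to 231) its reads. The oestrogen receptors ESR1 and ESR2 had 5 and 8 counts, and the progesterone receptor PGR had 0, as had PGR-AS1. ESR2 lay just under the limit of detection, and ESRRB with 10 counts and NR5A2 with 11 lay just inside it.

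Of 10 glucocorticoid receptor targets 9 were detected, beside 69.7% of protein-coding genes, with a list median of 39.9 CPM. ERRFI1, a feedback inhibitor of EGFR, had 5803 counts, the transcription factor CEBPD had 1832, the sodium channel subunit SCNN1A had 1763 and TSC22D3 (GILZ) had 1207. FKBP5 had 1065 counts, SGK1 had 407, and ZBTB16, a strongly hormone-induced gene, was at 0. All 8 chaperones of steroid receptors were detected, with a median of 199 CPM. HSP90AA1 had 30592 counts, HSP90AB1 had 22861, HSPA8 had 16816 and the p23 gene PTGES3 had 5782, and near-identical copies of heat-shock genes make single values uncertain. Of 9 enzymes that activate or inactivate steroids 5 were detected, with a list median of 4.76 CPM. HSD17B4 had 1292 counts, the steroid sulphatase STS had 1139, SULT2B1 had 585 and HSD11B2, which inactivates cortisol, had 134. HSD11B1, which regenerates cortisol, was at 0, as were HSD17B2 and SULT1E1, and the aromatase CYP19A1 had 4.

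Genes often used as oestrogen receptor targets were partly read although ESR1 was not detected. XBP1 had 2855 counts, the carbonic anhydrase CA12 had 1517, GREB1 had 122 and PDZK1 had 37, while TFF1 had 2. That made 4 of 5 detected with a list median of 4.88 CPM. Reads at ESR1 also have an overlapping neighbour, SYNE1, with 111 counts.

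ESRRA was the leading oestrogen-related receptor, an orphan that drives mitochondrial genes together with PGC-1 coactivators. ESRRA had 2060 counts, or 82.4 CPM (78.8 to 86.0), ESRRB had 10 counts and ESRRG had 0. The span of ESRRA overlaps TRMT112, which had 2258 counts, and its pseudogenes ESRRAP1 and ESRRAP2 had 1 and 0 counts. All 5 listed mitochondrial targets were detected, with a median of 29.1 CPM. ATP5F1B had 28036 counts, CYCS had 3116, IDH3A had 728, ACADM had 427 and the muscle gene PERM1 had 25.

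The NR4A receptors are immediate-early genes whose products act without a classical ligand. NR4A1 (NUR77) had 473 counts, or 18.9 CPM (17.2 to 20.7), NR4A2 (NURR1) had 114 counts, or 4.56 CPM (3.76 to 5.48), and NR4A3 (NOR1) had 28 counts, or 1.12 CPM (0.744 to 1.62). The ratios were 4.15 (3.38 to 5.14) for NR4A1 to NR4A2 and 4.07 (2.67 to 6.40) for NR4A2 to NR4A3. All 9 other immediate-early genes listed were detected, with a median of 17.0 CPM. JUNB had 9897 counts, IER2 had 9781, EGR1 had 3217 and IER3 had 1897, while FOS had 425 and FOSB had 15. The NR4A genes thus covered a range also seen among these genes.

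Of the remaining orphans, NR6A1 lay below the median of detected protein-coding genes (26.4 CPM), and the others had 11 counts or fewer. NR6A1 (GCNF), a germ cell factor known in mouse to silence pluripotency genes, had 327 counts, or 13.1 CPM (11.7 to 14.6). NR5A2 (LRH-1) had 11 counts, or 0.44 CPM (0.22 to 0.787), and NR5A1 (SF-1), the regulator of steroid-producing tissues, had 1. NR0B1 (DAX-1) and NR0B2 (SHP), which lack a DNA-binding domain and act as repressors of other receptors, were both at 0, and the overlapping neighbour of NR0B2, NUDC, had 3088 counts.

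Across the 30 detected receptors in order of reads, 15 of 29 neighbouring pairs had a ratio whose interval held 1, so their order is not set by these counts. NR2F6 and RXRA were such a pair at 1.00 (0.959 to 1.05), and so were THRA and NR1D1 at 1.01 (0.917 to 1.10). RARG was set apart from the next receptor, NR2F6, by a ratio of 1.63 (1.56 to 1.70).

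Coregulators that receptors share were mostly detected. Of 15 coactivators 14 were detected, with a median of 116 CPM. The histone methyltransferase KMT2D had 7844 counts, the arginine methyltransferases PRMT1 and CARM1 had 6374 and 5827, and the acetyltransferase EP300 had 4198. Among the p160 coactivators NCOA3 had 2908 counts, NCOA2 had 1289 and NCOA1 had 614. PPARGC1A (PGC-1 alpha) was at 0, whereas its relatives PPRC1 and PPARGC1B had 2967 and 358 counts. All 10 corepressors were detected, with a median of 91.0 CPM. Among them NCOR1 had 4963 counts, TBL1X had 3237 and the demethylase KDM1A had 2362. Over the 20 lists of coregulators, ligand handling and targets, 115 of 154 genes were detected, or 74.7%, beside 69.7% of protein-coding genes.

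**Figure D5:**
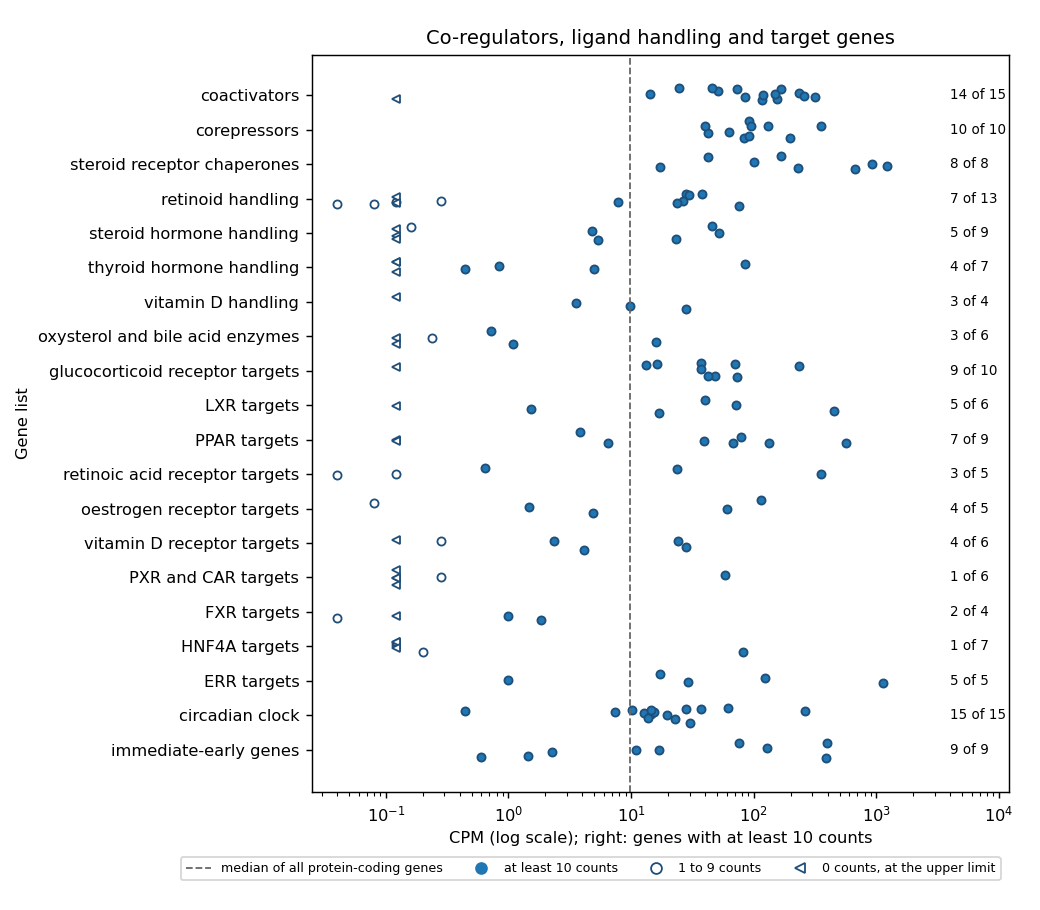
CPM (log axis) of each gene in the 20 lists, with the number detected at the right; filled circles had at least 10 counts, open circles 1 to 9, open triangles 0 counts at the upper limit of 0.12 CPM, and the dashed line is the median of all protein-coding genes (9.84 CPM). Coregulators and chaperones lie almost wholly to the right of the line, and most targets of PXR and CAR, FXR and HNF4A had few or no reads.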

How the data were processed

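RNA-seq of wild-type NCI-H1975 cells (replicate 2) was the only sample with values. Its deposited values are raw, whole-number counts of reads, 1 per Ensembl gene identifier, that the authors left unnormalised. The submitters' processing notes name STAR, featureCounts and the build hg19 without roles; they state no annotation release, no strand setting and no rule for multi-mapped reads. Per the labels' protocols, total RNA (Trizol) went into a directional NEBNext library.

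Identifiers were matched without version to current symbols (56373 of 60880 rows, 99.8% of counts). CPM is counts per 1000000 library counts. Poisson (Garwood), binomial (Clopper-Pearson) and conditional ratio intervals are at 95%, and a count of 0 is given as a limit of 3 counts. Reads carry no molecular identifiers, so the intervals cover counting error only. The interval calculations were run on counts simulated from the Poisson and binomial models that they assume. That run checks the calculation only, not whether the library follows those models. RefSeq GRCh38.p14 gave gene type, overlaps and promoters; hg19 coordinates were not used. No lengths were available, so no level per length was computed. Members and lists were chosen with earlier results of these data known. All members were named, and per list the 4 highest genes and up to 3 under 10 counts; other list genes, the motifs and the printed promoters were chosen after their values were seen. A few members of the family and a few list genes are not reported here by name; the list genes stay in their lists' counts and medians. Alternatives were minima of 1 or 50 counts or 1 CPM, totals without mitochondrial genes or the 10 highest genes, and any listed start. Scripts ran in Python 3.11.15 with SciPy 1.17.1, pandas 2.3.3, NumPy 2.4.6 and Matplotlib 3.10.9.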

Additional observations from a re-analysis of the deposited data

How the results depend on the processing

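The number of receptors detected was 39 at a minimum of 1 count, 24 at 50 counts and 26 at 1 CPM, each within 1.5 times of 30. The family's share of the library became 0.164% without mitochondrial genes in the total and 0.167% without the 10 highest genes, since each smaller total raises every other level by 1.06 or 1.08 times. The median of detected receptors became 18.9 CPM at a minimum of 1 count, 42.2 CPM at 50 counts and 41.8 CPM at 1 CPM, because the minimum sets which members enter, and 40.3 CPM without the 10 highest genes, through the smaller total. Over the 20 lists of coregulators, ligand handling and targets 127, 102 and 107 genes were detected at 1 count, 50 counts and 1 CPM. With the 2 marker lists included, 56 of 66 counts per list and minimum stayed within 1.5 times. The other 10 were all in short or low lists. At 50 counts FXR targets fell from 2 to 0, thyroid hormone handling from 4 to 2 and oxysterol and bile acid enzymes from 3 to 1. At 1 CPM thyroid hormone handling had 2 and FXR targets had 1. At 1 count more genes entered for retinoid handling, other cell types and the targets of retinoic acid receptors, PXR and CAR, and HNF4A. The promoter alternative (any listed start) was chosen after seeing the data. Alternatives per coding length were not run, because no lengths were available. No paired analysis was possible because the ATAC-seq samples that share a replicate number have no values here. With 1 library, depth limits statements on the 16 undetected receptors to levels near 0.4 CPM and below.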
